A study of Mus musculus with 2 samples.

Results

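The 38 genes described here act in DNA replication and cell division. They were chosen by symbol among the 33696 genes of the deposited matrices and fall into 24 mitotic genes, 13 replication genes and Stmn1. Their UMI (unique molecular identifier) counts were read in single-cell RNA libraries of the dura, the outer membrane of the meninges, peeled from the skullcap of female mice. One library came from sham-operated mice and the other from mice whose jugular veins had been ligated 14 days earlier (JVL-14), so each group is 1 library. The labels name no genotype, transgene or drug that sets the groups apart. Cells of 2 meninges were pooled per well, viable singlets were sorted, and 20000 cells were loaded per library.

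A dividing cell first copies its DNA and then separates the copies. The replication genes encode the MCM helicase that opens the DNA (Mcm2 to Mcm7), the sliding clamp Pcna and its partner Pclaf, and the enzymes that supply nucleotides (Rrm1, Rrm2, Tyms, Tk1 and Dut). The mitotic genes encode the kinase Cdk1 and its cyclins (Ccna2, Ccnb1, Ccnb2), the Aurora and Polo kinases (Aurka, Aurkb, Plk1), and the spindle checkpoint (Bub1, Bub1b). They also encode spindle motors and microtubule proteins (Kif11, Kif20a, Kif23, Tpx2, Prc1, Nusap1, Hmmr), centromere proteins (Cenpa, Cenpe, Cenpf), and the degradation factors Ube2c and Cdc20. Top2a untangles DNA, Birc5 belongs to the chromosomal passenger complex, and Mki67 encodes the proliferation marker Ki-67. Stmn1 encodes a microtubule-destabilising protein that is also made by neurons and glia. The dura lies against skull marrow, and blood-forming precursors are known to divide in marrow.

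The promoters of the mitotic and replication genes differed in their short motifs. As examples, 4 upstream stretches are shown that are rich in matches and not typical of their groups. Promoter windows from RefSeq (build GRCm38.p6, not the build of the counts) matched 20 of the 24 mitotic and 12 of the 13 replication genes. TTTGAA or TTCGAA, the core of the cell cycle homology region found in mitotic promoters, stood on either strand in 17 of 21 mitotic windows (81.0%) and in 2 of 13 replication windows (15.4%). It stood in 19.2% of all 32851 windows of that length. These windows run from 250 bases before to 50 after the start site. In the upstream 250 bases alone it stood in 9 of the 21 mitotic (42.9%), 2 of the 13 replication and 17.1% of all windows, and the other 8 mitotic windows held it only past those bases. CCAAT stood in 90.5% of the mitotic, 76.9% of the replication and 37.4% of all windows. E2F motifs (TTTCCCGC, TTTGGCGC, TTTCGCGC or TTTGCCGC, either strand) stood in 4.76% of the mitotic, 38.5% of the replication and 2.26% of all windows (4.76%, 23.1% and 1.86% in the upstream bases alone). Matches to different motifs could overlap. Each line below gives the 250 bases before a start site, 5′ to 3′ on the strand of the gene, with the matches in capitals. Top2a and Ube2c are mitotic, and Mcm5 and Mcm6 are replication genes. They lie at chr11:99024190-99024439 (minus strand), chr2:164769679-164769928 (plus), chr8:75109259-75109508 (plus) and chr1:128359706-128359955 (minus).
Top2a: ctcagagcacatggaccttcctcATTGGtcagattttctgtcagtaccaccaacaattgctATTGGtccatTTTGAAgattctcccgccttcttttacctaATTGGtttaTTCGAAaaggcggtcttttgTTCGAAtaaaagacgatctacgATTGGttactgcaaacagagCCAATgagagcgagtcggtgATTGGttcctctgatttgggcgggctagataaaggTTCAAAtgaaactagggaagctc
Ube2c: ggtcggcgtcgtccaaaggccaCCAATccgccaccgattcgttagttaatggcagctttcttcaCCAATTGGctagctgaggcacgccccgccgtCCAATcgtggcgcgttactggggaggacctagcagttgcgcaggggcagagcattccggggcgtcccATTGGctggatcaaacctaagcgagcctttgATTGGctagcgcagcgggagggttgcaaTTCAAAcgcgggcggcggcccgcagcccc
Mcm5: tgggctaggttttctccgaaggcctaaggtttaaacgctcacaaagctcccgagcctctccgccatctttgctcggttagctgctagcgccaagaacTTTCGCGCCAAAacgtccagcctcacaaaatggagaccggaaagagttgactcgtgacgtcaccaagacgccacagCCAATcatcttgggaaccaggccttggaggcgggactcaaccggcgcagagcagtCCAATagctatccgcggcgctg
Mcm6: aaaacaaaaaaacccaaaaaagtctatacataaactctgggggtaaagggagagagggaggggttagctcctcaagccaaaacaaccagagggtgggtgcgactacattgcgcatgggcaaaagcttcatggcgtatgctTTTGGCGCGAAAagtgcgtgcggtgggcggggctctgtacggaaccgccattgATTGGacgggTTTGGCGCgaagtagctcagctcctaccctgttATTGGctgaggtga
The upstream stretches of Top2a and Ube2c held TTTGAA or TTCGAA and CCAAT but no E2F motif, whereas those of Mcm5 and Mcm6 held CCAAT and E2F motifs and neither TTTGAA nor TTCGAA. A match is a run of letters and no measured site.

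The sham library held 5495 barcodes and the JVL-14 library 3004, and 2 barcode sequences occurred in both. After filters on genes and mitochondrial reads and removal of suspected doublets, 4672 sham and 2471 JVL-14 cells remained, with median depths of 4502.5 and 4530 UMIs. The cells fell into 36 clusters, built without the 38 genes and other cell cycle genes, of which 33 received a cell class name from marker genes. With 1 library per group, no difference between the groups has a replicate check or a test. The intervals below are 95% intervals that cover counting error only. The ligature cannot be told apart from differences between the mice, dissections and library preparations.

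Cells that carried these genes lay in few classes, most of them classes of blood cells and their precursors. A cell was counted as carrying the mitotic set when at least 3 of the 24 mitotic genes had a UMI, and the replication set when at least 3 of the 13 replication genes did, after every cell had been thinned to 1500 UMIs. Of 3844 sham cells of that depth, 108 carried either set (2.81%, 95% exact interval 2.31 to 3.38), and of 2114 JVL-14 cells, 167 did (7.90%, 6.79 to 9.13). In the sham library, 34.3% of these cells were monocyte-like, 26.9% B cell precursor-like, 15.7% dendritic cell-like and 10.2% macrophage-like. In the JVL-14 library, 49.1% were B cell precursor-like, 24.6% erythroid-like, 10.2% monocyte-like and 7.78% dendritic cell-like. These shares depended on doublet removal. Without it and with classes rebuilt, 173 sham cells carried a set, of which 39 were monocyte-like and 34 B cell precursor-like. Another 19 were neutrophil precursor-like, 18 neutrophil-like, 14 macrophage-like, 13 dendritic cell-like and 10 erythroid-like. Of 191 such JVL-14 cells, 83 were B cell precursor-like, 44 erythroid-like, 21 neutrophil precursor-like and 11 monocyte-like.

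The B cell precursors (Vpreb3, Rag1, Igll1) carried either set in 29 of 183 cells of the sham library (15.8%, 10.9 to 22.0) and in 82 of 249 of the JVL-14 library (32.9%, 27.1 to 39.1). Most of these cells belonged to 1 cluster led by Igll1 and Vpreb1a, parts of the surrogate light chain of early B cells. Its leading genes also included Pclaf and Top2a, of the 38 genes, and other cell cycle genes (H2ac8, H1f5, Uhrf1 and H2ax). Its high shares of cells with a set thus restate its leading genes in part. In that cluster 24 of 35 sham cells (68.6%) and 70 of 82 JVL-14 cells (85.4%) carried a set, and in the other precursor cluster, led by Arl5c, Bach2 and Rhoh, 5 of 148 and 12 of 167 did. The monocyte-like cells carried a set in 37 of 126 cells of the sham library (29.4%, 21.6 to 38.1) and in 17 of 52 of the JVL-14 library (32.7%, 20.3 to 47.1). This cluster was led by the granule genes Ctsg, Prtn3 and Elane together with Ly6c2 and Plac8, so it held markers of neutrophil precursors (3 of the 10 leading genes) as well as of monocytes (4 of 10). Dendritic-like cells carried a set in 17 of 135 sham cells (12.6%) and 13 of 67 JVL-14 cells (19.4%). Among erythroid-like cells, 0 of 71 carried a set in the sham library, a count that allows up to 4.23%, and 41 of 104 in the JVL-14 library (39.4%, 30.0 to 49.5). Without doublet removal, 10 of 87 (11.5%, 5.65 to 20.1) and 44 of 106 (41.5%, 32.0 to 51.5) did.

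The resident and stromal classes held few such cells. Macrophage-like cells carried a set in 11 of 472 sham cells (2.33%) and 1 of 242 JVL-14 cells (0.413%). Fibroblast-like cells, the most numerous class, did so in 6 of 1505 sham cells (0.399%) and 5 of 642 JVL-14 cells (0.779%). All 6 of those sham fibroblasts lay at the limit, with 3 replication genes and 0 mitotic genes, beside 64 that had 2 and 0. Of the 5 JVL-14 fibroblasts, 2 had 3 replication genes and 0 mitotic genes. No cell with a set was found among the blood endothelial, Schwann or glial, T cell and olfactory neuron-like classes of either library. These counts allow up to 4.48% (sham) and 9.38% (JVL-14) of blood endothelial and 4.92% and 6.98% of Schwann or glial cells. They allow up to 8.11% and 11.5% of T cells and 1.78% and 1.60% of olfactory neuron-like cells. Without doublet removal, 1 Schwann or glial and 2 olfactory neuron-like JVL-14 cells carried a set. Mature neutrophils (Retnlg, Cxcr2), which have left the cell cycle, served as the background. None of their 62 sham or 42 JVL-14 thinned cells carried a set, at median depths of 4289.5 and 3750 UMIs over all 62 and 47 cells of the cluster. Mki67 had no UMI in those 62 sham and 47 JVL-14 cells, whereas 31 of 204 sham (15.2%) and 78 of 268 JVL-14 B cell precursors (29.1%) had one, at median depths of 2737 and 3398 UMIs.

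**Figure D1:**
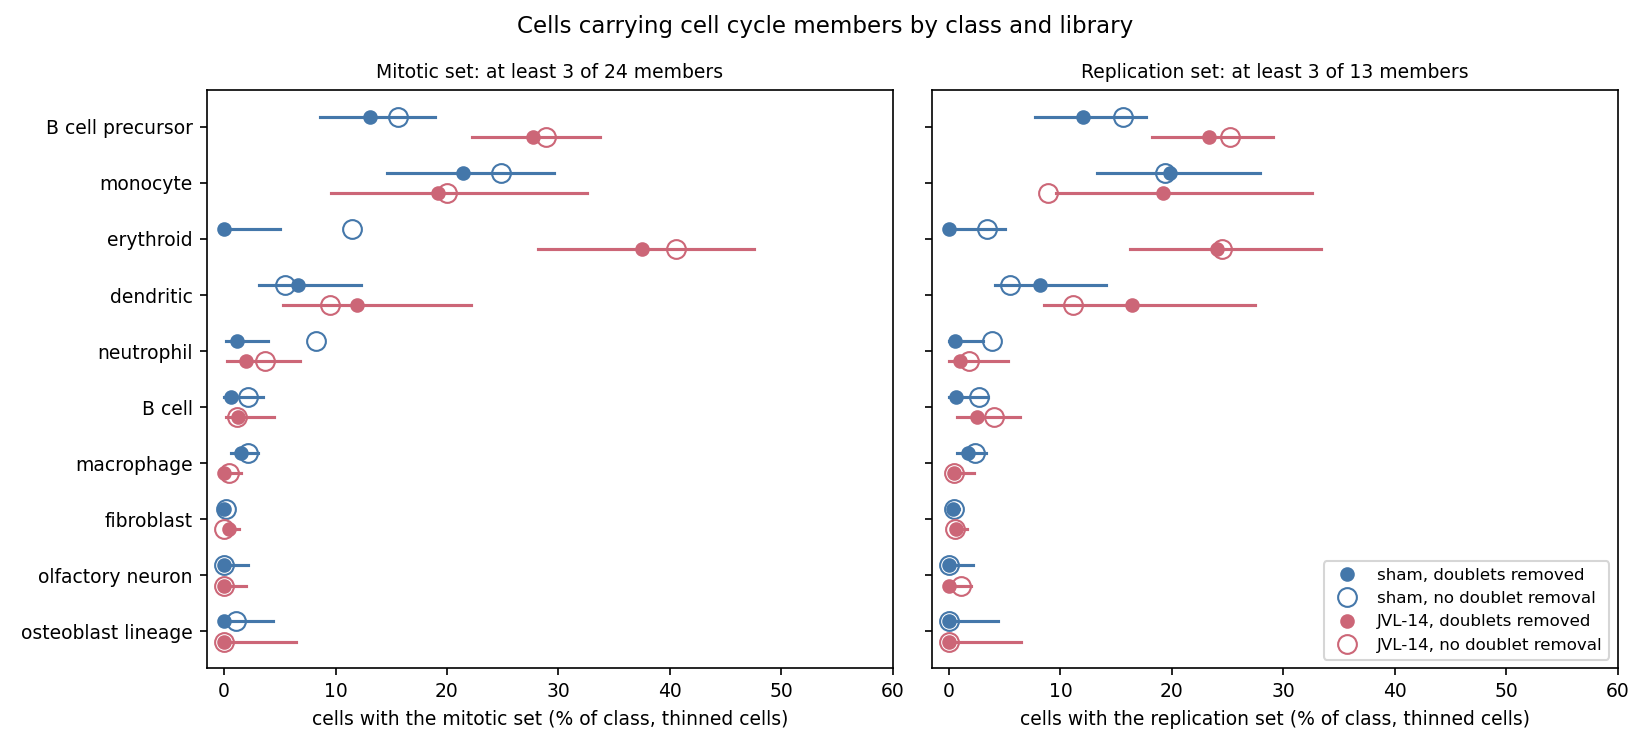
Percent of the cells of each class that carried at least 3 mitotic genes (left) or at least 3 replication genes (right) after thinning to 1500 UMIs, in the sham (blue) and JVL-14 (red) libraries. Filled points have 95% exact intervals, open circles give the same share with no doublet removal and classes rebuilt, and in the JVL-14 library the B cell precursor, monocyte, erythroid and dendritic classes lie to the right of the macrophages and fibroblasts. The filled sham erythroid point lies at 0.

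The mitotic and replication genes were often found in the same cell. Of the 108 sham cells with a set, 40 carried both, 30 the mitotic set alone and 38 the replication set alone. Of the 167 JVL-14 cells, 81 carried both, 53 the mitotic set alone and 33 the replication set alone. Among the JVL-14 erythroid-like cells with a set, 23 carried both, 16 the mitotic set alone and 2 the replication set alone. Among the sham dendritic-like cells, 3 carried both, 6 the mitotic set alone and 8 the replication set alone. Cells with a set were deeper than the rest before thinning, with medians of 16215.5 against 5800 UMIs in the sham and 10892 against 5231 UMIs in the JVL-14 library. Few cells lay at the limit of the mitotic set: 28 sham and 35 JVL-14 cells had 2 mitotic genes, and 9 and 16 had 3. For the replication set, 136 sham and 88 JVL-14 cells had 2 genes, and 24 and 17 had 3.

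**Figure D2:**
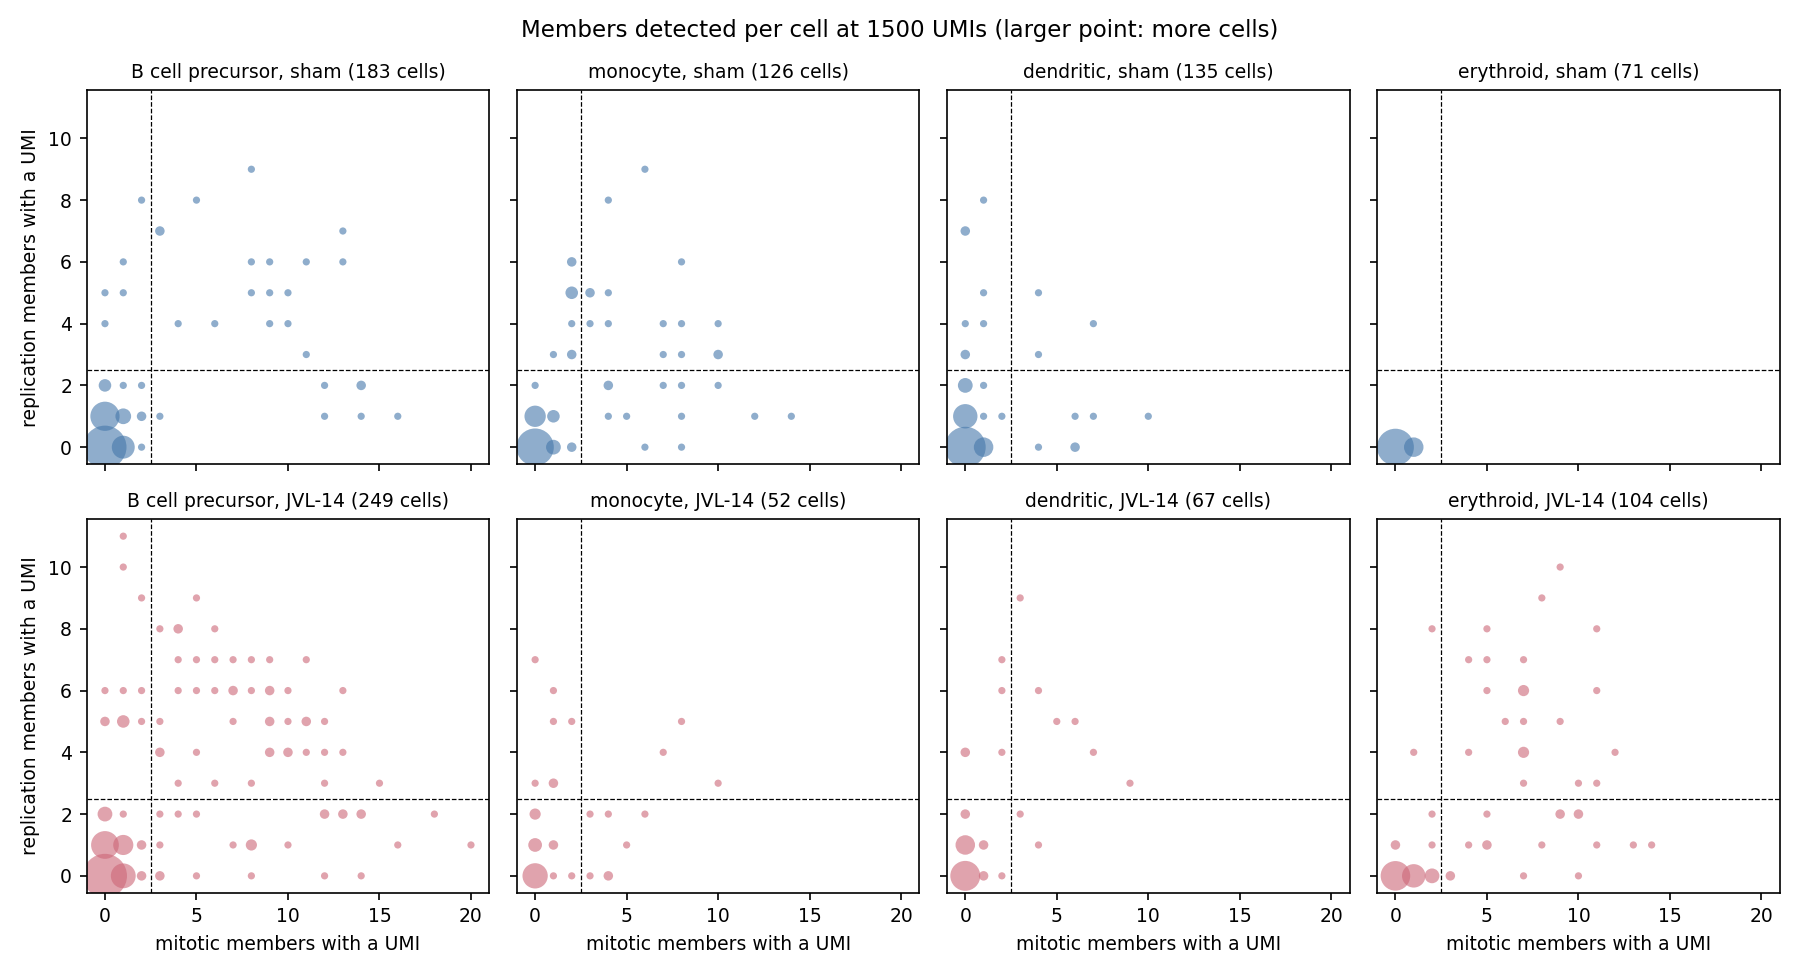
Number of mitotic genes (horizontal axis) against number of replication genes (vertical axis) with a UMI per cell after thinning to 1500 UMIs, for 4 classes and both libraries. Point area grows with the number of cells, dashed lines mark the limits of the sets, and the 71 sham erythroid cells all lie below both limits whereas 41 of the 104 JVL-14 erythroid cells do not. Doublets were removed, which took all 10 sham erythroid-like cells that carried a set without removal.

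Between classes, and with doublets removed, most of the 38 genes were highest in B cell precursors. Only named classes with at least 50 cells in a library were ranked, 17 for the sham and 12 for the JVL-14 library. By UMIs of a gene per 1000000 UMIs of a class (CPM), 27 of the 38 genes were highest in B cell precursors in the sham library, 9 in monocyte-like cells, 1 in mast cells (Kif23) and 1 in pineal cells (Stmn1). In the JVL-14 library 31 were highest in B cell precursors, 6 in erythroid-like cells and 1 in Schwann or glial cells (Stmn1). The order without doublet removal is not given here. In that setting, the share of B cell precursors with a set was 19.7% (sham) and 34.3% (JVL-14). It was higher in neutrophil precursor-like cells (35.2%, 51.2%) and the erythroid cluster led by Rhd (40.0%, 56.8%). Monocyte-like cells were higher in the sham library only (30.2%, 24.4%). These are shares of cells, not CPM. Top2a stood at 447 (sham) and 633 CPM (JVL-14) in B cell precursors, at 350 and 217 CPM in monocyte-like cells, at 90.9 and 124 CPM in dendritic-like cells, and at 0.812 and 5.58 CPM in fibroblasts. Pclaf stood at 605 and 1053 CPM in B cell precursors and at 535 and 371 CPM in monocyte-like cells.

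The genes differed in how closely they were tied to cells with a set. Top2a had 95.5% of its UMIs in such cells in the sham and 98.6% in the JVL-14 library, and Pclaf 96.4% and 98.8%. Pcna, which also serves DNA repair, had only 26.0% and 54.0% there. Dut, which clears dUTP from the nucleotide pool, had 26.2% and 58.9%, and Mcm4 27.5% and 61.2%. Among fibroblasts, Pcna stood at 85.3 CPM in the sham and 76.9 CPM in the JVL-14 library and Dut at 104 and 107 CPM, at shares of cells with a set below 1%. Cenpa, the centromeric histone, had 57.3% and 76.0% of its UMIs in cells with a set and stood at 71.5 and 58.2 CPM in macrophages. These shares describe the sets, since the same genes defined them.

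Stmn1, Ube2c and Nusap1 were also found in classes with few or no cells carrying a set. In Schwann or glial cells Stmn1 stood at 759 (sham) and 2094 CPM (JVL-14), beside 1319 and 2039 CPM in B cell precursors. In the erythroid cluster dominated by haemoglobin genes, Ube2c had a UMI in 32 of 63 sham cells (50.8%) and 26 of 33 JVL-14 cells (78.8%), whereas Mki67 had one in 1 and 2 cells. Mature neutrophils, the background, had a Ube2c UMI in 0 of 62 sham cells, which allows up to 4.84%, and 1 of 47 JVL-14 cells. The erythroid cluster was deeper, with medians of 13419 and 13666 UMIs. Nusap1 stood at 80.6 CPM in sham erythroid-like cells, where Top2a, Cdk1 and Pclaf had no UMI.

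**Figure D3:**
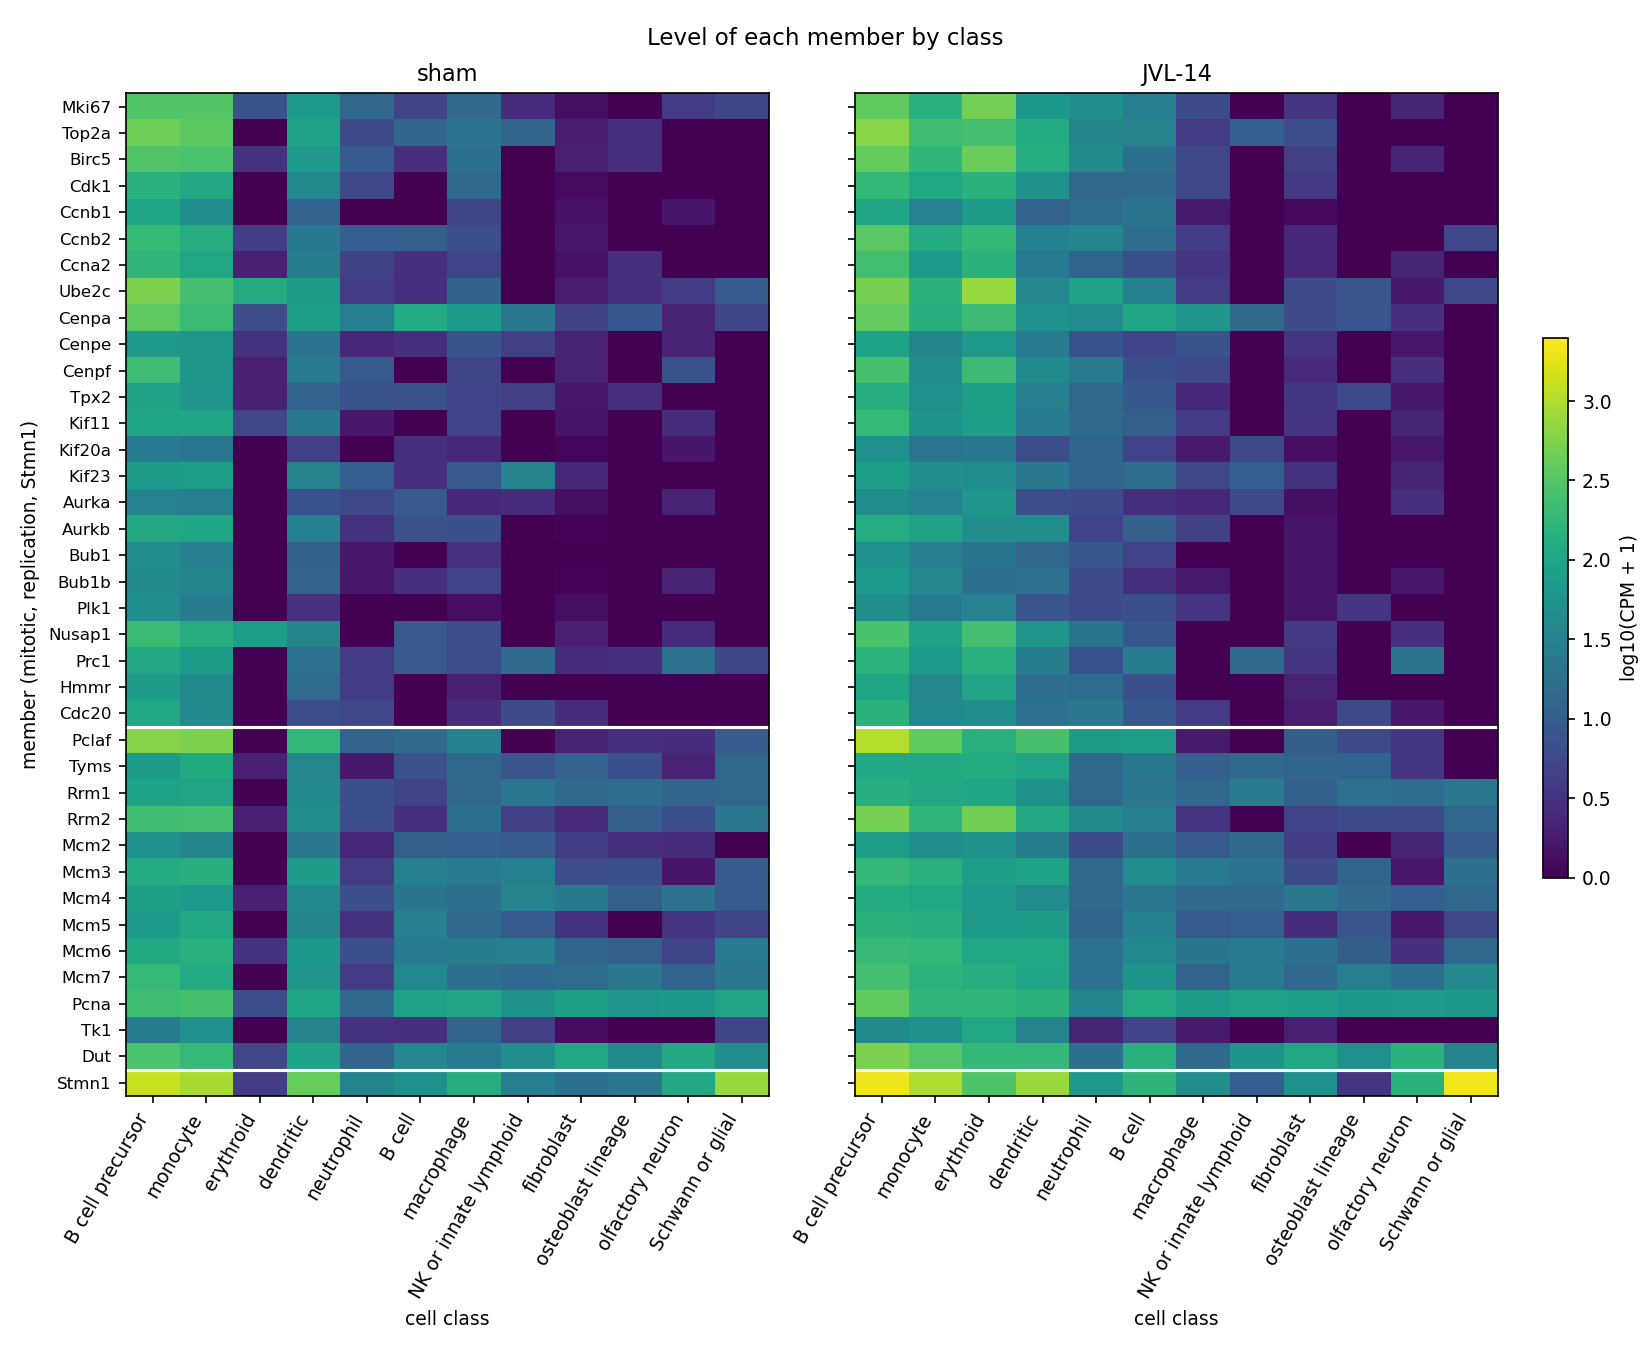
Level of each of the 38 genes (rows: mitotic, replication, Stmn1, separated by white lines) in 12 cell classes (columns) as log10(CPM + 1), for the sham (left) and JVL-14 (right) libraries. B cell precursors and monocyte-like cells are bright in both, the erythroid column is bright in the JVL-14 library, and Pcna, Dut and Stmn1 reach beyond those classes.

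Over all retained cells, the JVL-14 library held more of every one of the 38 genes. The 24 mitotic genes together stood at 363 CPM in the sham and 1031 CPM in the JVL-14 library (ratio 2.84), and the 13 replication genes at 435 and 879 CPM (ratio 2.02). Rrm2, a subunit of ribonucleotide reductase, stood at 27.2 and 111 CPM (ratio 4.09, 95% interval 3.76 to 4.46), the largest ratio, and Pcna at 89.9 and 117 CPM (ratio 1.30, 1.23 to 1.38), the smallest. Among the most counted mitotic genes, Ube2c stood at 40.4 and 137 CPM, Mki67 at 32.9 and 96.2 CPM, Birc5 at 30.8 and 94.7 CPM, Top2a at 41.0 and 103 CPM, and Cenpa at 40.9 and 78.0 CPM. Of the 24 genes with enough counts to be compared (at least 20 UMIs and a mean of 20 CPM), 23 were at least 1.5-fold higher in the JVL-14 library. Among all 6545 genes so measured, 5.04% were at least 1.5-fold higher and 5.03% at least 1.5-fold lower.

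The size of this difference depended on the classes present, on thinning and on doublet removal. The share of cells with either set was 2.81 times as high in the JVL-14 library (2.19 to 3.62). B cell precursors made up 4.37% of the sham and 10.8% of the JVL-14 cells, and erythroid-like cells 1.61% and 4.41%. Over the 19 classes found in both libraries the ratio was 2.76. It was 1.69 when the JVL-14 shares were weighted by the class sizes of the sham library, and 1.24 when only the class sizes differed. These weighted values took the sham erythroid-like share as 0, after doublet removal had taken all 10 sham erythroid-like barcodes with a set. They also took B cell precursors as a single class, which pooled clusters of 40 and 164 sham and 88 and 180 JVL-14 cells. With no thinning the ratio was 1.29 for either set (1.14 to 1.46), 2.82 for the mitotic and 1.18 for the replication set. At the sham class sizes and with no thinning it was 1.02 for either set and 0.974 for the replication set, the latter below 1. Doublet removal took 58 of the 173 sham cells with a set but 20 of the 191 JVL-14 cells with a set. Without it, the shares were 4.22% and 8.53%, the ratio 2.02 (1.64 to 2.50), and the summed CPM ratios 2.05 for the mitotic and 1.73 for the replication genes. Whether those barcodes were doublets was not tested.

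Within B cell precursors, 37 of the 38 genes were higher in the JVL-14 library, the replication genes by more than the mitotic genes. The replication genes together stood at 2131 CPM in the sham and 3727 CPM in the JVL-14 library (ratio 1.75, 1.66 to 1.85), and the mitotic genes at 3886 and 4950 CPM (ratio 1.27, 1.22 to 1.33). All 38 were measured, and 17 were at least 1.5-fold higher (11 replication genes, 5 mitotic genes and Stmn1) and 0 were at least 1.5-fold lower, against 6.62% and 11.6% of all 5572 measured genes. The median log2 ratio was 0.64 for the replication and 0.42 for the mitotic genes, beside -0.05 for all measured genes.

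Among the genes with the highest ratios in B cell precursors, the helicase subunit Mcm5 stood at 66.8 CPM in the sham and 152 CPM in the JVL-14 library (ratio 2.28, 1.69 to 3.13). Rrm2 stood at 224 and 501 CPM (ratio 2.24, 1.90 to 2.65) and Kif20a, a motor of late mitosis, at 23.1 and 50.5 CPM (ratio 2.19, 1.30 to 3.85). Dut stood at 272 and 535 CPM and Pcna at 221 and 372 CPM. At the other end, Ube2c stood at 536 and 509 CPM (ratio 0.951, 0.843 to 1.07), Ccnb1 at 98.4 and 98.8 CPM, and Cenpa at 360 and 383 CPM. Cyclin B2 (Ccnb2), unlike Ccnb1, stood at 188 and 335 CPM (ratio 1.78, 1.48 to 2.15).

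The shares within B cell precursors pointed the same way, and 1 cluster held most of the difference. The share with either set was 2.08 times as high in the JVL-14 library (1.35 to 3.29) and 1.75 times as high without doublet removal (1.16 to 2.68). The cluster led by Igll1 also had Pclaf and Top2a among its leading genes. It held 40 sham and 88 JVL-14 cells, against 164 and 180 in the other. Without the Igll1-led cluster, the shares were 3.38% and 7.19% (ratio 2.13, 0.698 to 7.71), an interval that includes 1. By set, the ratio was then 2.95 (0.761 to 16.7) for the mitotic and 0.591 (0.0493 to 5.16) for the replication set. Both intervals include 1. Within the Igll1-led cluster, the ratio for either set was 1.24 (0.773 to 2.07), which also includes 1. There Top2a stood at 928 (sham) and 1006 CPM (JVL-14), and Rrm2 at 446 and 803 CPM.

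**Figure D4:**
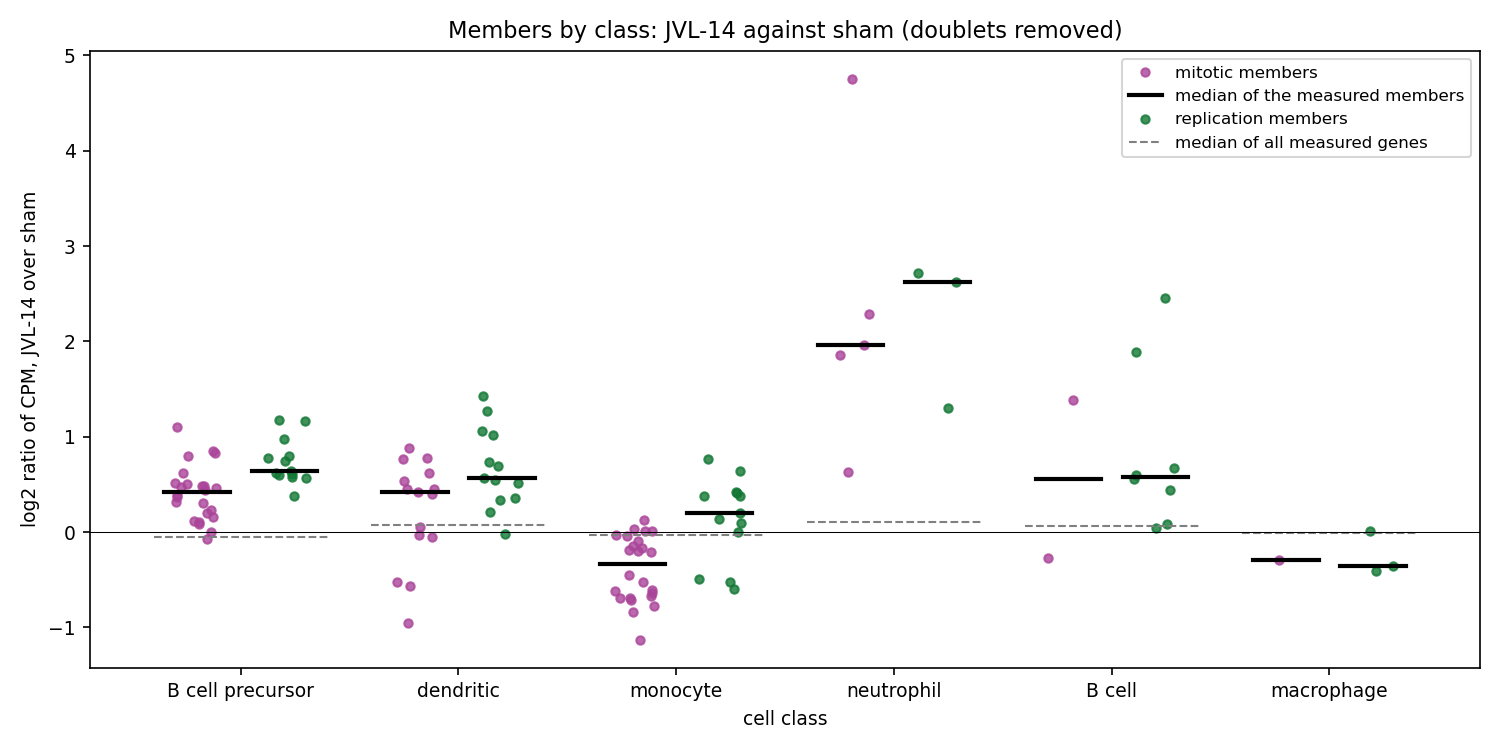
Log2 ratio of CPM, JVL-14 over sham, of each measured mitotic (purple) and replication (green) gene in 6 cell classes, with doublets removed. Black bars are medians of the genes shown and dashed lines the median of all measured genes. In B cell precursors 1 of the 37 genes shown lies below 0, and in monocyte-like cells 20 of 24 mitotic genes do.

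In the monocyte-like class, which also held neutrophil precursor markers, the mitotic genes were lower in the JVL-14 library. The summed replication genes were nearly level. Of the 24 mitotic genes, 20 were lower in the JVL-14 library, beside 2786 of all 5362 measured genes of that class. Of the 20, 10 were at least 1.5-fold lower, against 12.7% of all measured genes of that class. The mitotic genes together stood at 2659 CPM in the sham and 1834 CPM in the JVL-14 library (ratio 0.690, 0.650 to 0.733). Mki67 stood at 310 and 141 CPM (ratio 0.455, 0.367 to 0.561), Cenpe at 62.6 and 34.6 CPM, and the spindle motor Kif11 at 97.2 and 56.5 CPM. Of the 13 replication genes, 9 were higher, beside 2576 of all 5362 measured genes. Among the 13, 2 were at least 1.5-fold higher, against 11.4% of all measured genes, while 1 was at least 1.5-fold lower. The 2 higher genes were Dut, at 188 and 318 CPM (ratio 1.69, 1.43 to 2.01), and Mcm4, at 67.5 and 105 CPM (ratio 1.56, 1.16 to 2.09). The replication genes together stood at 2085 and 2082 CPM.

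Few cells lay behind the monocyte-like values. The 5 cells with the most UMIs held 70.6% of the mitotic UMIs of the JVL-14 library and 27.9% of those of the sham library. The ratio of the shares of cells with either set was 1.11, with an interval that includes 1 (0.588 to 2.03). Without doublet removal this cluster separated. A monocyte-like cluster carried a set in 39 of 129 sham cells (30.2%) and 11 of 45 JVL-14 cells (24.4%). A neutrophil precursor-like cluster (Mpo, Ctsg, Elane) did so in 19 of 54 sham cells (35.2%) and 21 of 41 JVL-14 cells (51.2%). The cells of these clusters thus stood in different proportions in the libraries, and the summed levels above are for the unseparated class.

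In dendritic-like cells, 23 of the 29 measured genes were higher in the JVL-14 library, beside 2895 of all 4940 measured genes. Of the 29, 11 were at least 1.5-fold higher, against 10.3% of all measured genes. One, Ube2c, was at least 1.5-fold lower, against 7.09%. Tyms, which makes thymidylate, stood at 35.9 CPM in the sham and 96.7 CPM in the JVL-14 library (ratio 2.69, 1.86 to 3.92). Rrm2 stood at 46.8 and 113 CPM, Mcm5 at 34.6 and 71.9 CPM, and Ube2c at 70.5 and 35.9 CPM (ratio 0.510, 0.318 to 0.789). The ratio of the shares of cells with a set was 1.54, with an interval that includes 1 (0.688 to 3.37). When cell cycle genes took part in the clustering, the median log2 ratio of 0.52 became -0.47. The 5 highest cells held 67.4% of the sham and 63.9% of the JVL-14 mitotic UMIs.

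In erythroid-like cells the libraries held 2 clusters in different proportions. The cluster of nucleated erythroid cells (Rhd, Slc4a1) had 12 sham and 76 JVL-14 cells, and the haemoglobin-dominated cluster had 63 and 33. The nucleated cluster held 40 of the 41 JVL-14 erythroid-like cells with a set. Top2a had 0 UMIs in sham and 376 UMIs (251 CPM) in JVL-14 erythroid-like cells, and Rrm2 had 1 and 717 UMIs. All 34 measured genes were at least 1.5-fold higher in the JVL-14 library, but so were 88.9% of all measured genes of that class (3.64% were that much lower), and nothing is read from the count. Without doublet removal, the nucleated cluster carried a set in 10 of 25 cells of the sham library (40.0%, 21.1 to 61.3) and in 42 of 74 of the JVL-14 library (56.8%, 44.7 to 68.2), intervals that overlap. All 10 of those sham erythroid-like cells had been removed as suspected doublets.

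Neutrophil-like cells gave opposite directions with and without doublet removal. With it, the mitotic genes together stood at 119 CPM in the sham and 498 CPM in the JVL-14 library, but 5 cells held 94.9% of the JVL-14 mitotic UMIs. All 9 measured genes were at least 1.5-fold higher, against 12.3% of all measured genes, of which 5.25% were at least 1.5-fold lower. Without it, the median log2 ratio of the measured genes was -0.57, and the cluster led by Camp and Ngp carried a set in 18 of 138 sham cells and 4 of 68 JVL-14 cells. Removal had taken 17 of the 18 sham neutrophil-like cells with a set and 1 of the 4 JVL-14 ones.

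Macrophage-like cells had less of both gene groups in the JVL-14 library. The mitotic genes together stood at 213 CPM in the sham and 116 CPM in the JVL-14 library (ratio 0.547, 0.456 to 0.653) and the replication genes at 312 and 198 CPM (ratio 0.635, 0.552 to 0.729). Of 5 measured genes, Stmn1 alone was at least 1.5-fold lower, at 130 and 47.0 CPM, against 4.99% of all measured genes, and 0 were at least 1.5-fold higher, against 3.55%. Few cells carried a set, 11 of 472 in the sham and 1 of 242 in the JVL-14 library. The ratio of their shares was 0.177, with a wide interval that includes 1 (0.00412 to 1.22). The intervals of the summed levels count UMIs, which can come many from 1 cell, and so are narrower than those of the shares.

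Fibroblasts and B cells rested on single cells. In fibroblasts the replication genes stood at 277 and 281 CPM, and the mitotic genes at 18.8 and 49.0 CPM, of which 5 cells held 66.7% in the JVL-14 library. Of the 4 measured genes, Stmn1 alone was at least 1.5-fold higher, at 16.8 and 49.6 CPM, against 1.29% of all measured genes, and 0 were at least 1.5-fold lower, against 2.64%. The log2 ratio of Stmn1 turned to -0.67 without doublet removal. In B cells, Pclaf stood at 13.8 and 80.2 CPM and Dut at 37.5 and 141 CPM. They were among 6 of 11 measured genes that were at least 1.5-fold higher, against 13.2% of all measured genes, and 0 were at least 1.5-fold lower, against 9.5%. Pclaf in B cells turned lower when the 5 highest cells of each library were left out (log2 ratio -0.060).

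Other genes of the cell cycle, on lists that do not define the sets, were compared between B cell precursors with and without a set. The cells were chosen on genes of the same process, so the directions below describe the sets and are no independent support. A gene could also pass the limits on low counts through the cells with a set alone. Of 54 measured genes for spindle and chromosome proteins, 53 were higher in JVL-14 cells with a set, with a median log2 difference of 5.51. The sham library gave 45 of 46 and 4.89. Over all measured genes, 2376 of 5478 were higher in JVL-14 cells with a set (median -0.14) and 2250 of 5075 in sham cells with a set (median -0.12). All 25 measured origin licensing and replication fork genes were higher in JVL-14 cells with a set (22 of 22 in sham), as were 33 of 37 replication-dependent histone genes (27 of 31 in sham). Cdca8, a partner of Birc5, stood at 388 CPM in JVL-14 cells with a set and 6.03 CPM in those without, and at 414 and 8.77 CPM in the sham library. Cell cycle inhibitors were mixed, with 5 of 12 higher in the JVL-14 and 3 of 11 in the sham library. Cdkn1b, the inhibitor p27, stood at 115 CPM in JVL-14 cells with a set and 390 CPM without, whereas Cdkn2c stood at 152 and 12.1 CPM.

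The same lists were compared between the libraries. In B cell precursors 50 of 53 spindle and chromosome genes and 22 of 24 licensing and fork genes were higher in the JVL-14 library, with median log2 ratios of 0.44 and 0.53, beside 2525 of all 5572 measured genes. There the spindle motor Kif15 stood at 40.1 (sham) and 111 CPM (JVL-14), the helicase factor Cdc45 at 14.6 and 45.4 CPM, and the histone gene H2ac24 at 824 and 2588 CPM. In monocyte-like cells 30 of 40 spindle and chromosome genes were lower (median log2 ratio -0.34) and 19 of 26 licensing and fork genes higher (median 0.22), beside 2786 of all 5362 measured genes lower and 2576 higher. There 5 of 6 measured G1 cyclins and their kinases were higher and 1 lower (median log2 ratio 1.14). The kinase Cdk6, among the higher, stood at 40.1 and 133 CPM. The G1 cyclin Ccnd3, the 1 lower, stood at 262 and 145 CPM. The inhibitor Cdkn1a stood at 230 and 129 CPM over all cells and at 207 and 86.3 CPM in fibroblasts (ratio 0.416). It was the only measured inhibitor at least 1.5-fold lower in either comparison, and the inhibitors as a list were mixed. Over all cells 7 of 13 were higher and 6 lower (median log2 ratio 0.20), beside 2956 of all 6545 measured genes higher. In fibroblasts 5 of 10 were higher and 5 lower, beside 3518 of all 6289 measured genes higher.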

How the data were processed

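Raw UMI counts per gene and barcode were deposited by the authors as filtered matrices of 2 libraries, made with Cell Ranger 8.0.0 per the file headers and with build mm39 per the submitters' processing notes. The labels and headers record no other step of read processing. The libraries summed to 33996641 (sham) and 18796260 (JVL-14) UMIs. Barcodes with at least 200 genes and at most 10% mitochondrial UMIs were kept. Scrublet (scanpy 1.11.5) marked 0.121% of sham and 0.230% of JVL-14 barcodes by its own threshold, below the 0.5% at which it was taken to work, so the 5% with the highest scores were removed instead (279 and 137 barcodes). Clustering used 2000 variable genes without the cell cycle genes, 30 components, 15 neighbours and Leiden (leidenalg 0.10.2) at resolution 1.

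Clusters were named from fixed marker lists. The numeric limits of the naming were set after the clusters were seen, because a first version scored against all other cells left several fibroblast clusters unnamed. The 38 genes and all lists were chosen with earlier results of these data known.

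CPM was computed from UMIs summed per class and library, and log2 ratios used a prior of 0.5 counts. Shares of cells used exact Clopper-Pearson intervals, and ratios used exact conditional binomial intervals (scipy 1.17.1). A count of 0 was given the limit that 3 counts allow. Classes with fewer than 50 cells in either library were not compared. Genes were named by most UMIs in each group and by the 3 highest and 3 lowest log2 ratios past 1.5-fold in each compared class, and of other lists up to 3 per direction. Ube2c, Nusap1 and Cenpa outside dividing classes, genes with ratios near 1, and genes shown for cells with and without a set were named after their values were seen. The fold and interval functions were tested on simulated data. Motifs were searched in RefSeq windows of 250 bases before to 50 after the start. The settings compared were doublet removal, mitochondrial and gene limits, clustering with cell cycle genes, Leiden resolution, thinning depth, members required per set, the CPM definition and the limits on low counts. Leaving out the Igll1-led cluster and the 5 highest cells was added after seeing the data.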

Additional observations from a re-analysis of the deposited data

Results flagged for a closer look

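Over all cells both groups of genes were higher in the JVL-14 library. Of the named classes in which both libraries had 50 or more cells, 2 had summed levels that were lower in the JVL-14 library with intervals below 1. Classes that were lower with intervals that include 1, such as the mitotic genes in Schwann or glial cells (ratio 0.406, 0.0386 to 2.48), are not listed. These differences between classes were not tested because each group is 1 library. In macrophage-like cells the CPM ratio, JVL-14 over sham, was 0.547 for the mitotic and 0.635 for the replication genes. Few of those cells carried a set, and the interval of the ratio of their shares includes 1. In monocyte-like cells the CPM ratio was 0.690 for the mitotic genes. Few cells held most of the JVL-14 mitotic UMIs of that class. Without doublet removal it separated into monocyte-like and neutrophil precursor-like clusters.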

How the results depend on the processing

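The median log2 ratio in B cell precursors ran from 0.41 to 0.83 over its alternatives. The ratio of shares with either set there ran from 1.46 (thinned to 3000 UMIs, 0.965 to 2.26) to 2.09 over the settings applied to all classes. It was 2.13 (0.698 to 7.71) without the Igll1-led cluster. All were above 1, although the first and last intervals include 1. Without that cluster the ratio was 2.95 (0.761 to 16.7) for the mitotic and 0.591 (0.0493 to 5.16) for the replication set, the latter below 1. Without doublet removal, the ratio over all cells was 2.02 for either set, 2.22 for the mitotic set, 2.05 for summed mitotic CPM and 1.73 for summed replication CPM, and the median log2 ratio of the measured genes was 0.94 over all cells, 2.25 in erythroid-like and -0.57 in neutrophil-like cells. With at most 5% mitochondrial UMIs these summed CPM ratios were 2.26 and 1.81, and the medians 1.08, 1.78 and -0.93. With at least 500 genes per cell the CPM ratios were 2.31 and 1.92, the medians 1.16 over all cells and -1.14 in neutrophil-like cells, and the B cell median -0.034. Mean CPM per cell gave 3.07 and 1.79 with a median of 1.63, and leaving haemoglobin genes out of the total gave 2.96 and 2.10. Requiring 2 genes gave ratios of shares over all cells of 1.92 for either and 1.72 for the replication set. Thinning to 3000 UMIs gave 2.15 for either set. With no thinning the ratios were 1.29 for either and 1.18 for the replication set, and at sham class sizes 1.02 and 0.974, the latter below 1. With cell cycle genes kept in the clustering, the dendritic median was -0.47, Mcm5 -0.55 and Tyms -0.39 (log2 ratios), and Mcm5 without doublet removal was -0.024 there. Pclaf in B cells was -1.60, -1.54 and -1.58 under the mitochondrial limit, the gene limit and the clustering with cell cycle genes, and -0.060 without the 5 highest cells. In neutrophil-like cells, without doublet removal, under the mitochondrial limit and under the gene limit, Pclaf was -0.53, -0.32 and -0.61, Rrm2 -0.60, -0.32 and -1.16, and Ube2c -0.92, -0.45 and -0.054. Pclaf was -1.39 there without the 5 highest cells, and Stmn1 in fibroblasts -0.67 without doublet removal. The causes of these shifts were not tested. No paired analysis was possible because each group is 1 library. Depth limited the shares of shallow cells: 828 sham and 357 JVL-14 cells under 1500 UMIs entered no share.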
